A study of Mus musculus with 27 samples.

Results

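The glutathione transferases described here are 10 genes, Gsta3, Gsta4, Gstm1, Gstm2, Gstm3, Gstp1, Gstt1, Gstt2, Mgst1 and Mgst3. They were taken as all probe sets that the array annotation assigns to these symbols, which gave 14 of the 12488 probe sets on the array and 10 of the 8251 genes that it names singly. The data are Affymetrix expression profiles of mouse liver, 1 mouse per array, in groups labelled Dex, Veh and Con with 9 mice each. The sources used here do not say what the abbreviations stand for, nor the sex, strain or age of the mice, the agents, the doses or the times. The groups are therefore called by their labels. Values are linear intensities in arbitrary units, differences are on the log2 scale, and levels of different probe sets cannot be set against each other.

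Glutathione transferases join the tripeptide glutathione to electrophilic compounds, which makes them more water-soluble and ready for export from the cell. The alpha (Gsta), mu (Gstm), pi (Gstp) and theta (Gstt) classes are soluble enzymes, and Mgst1 and Mgst3 belong to a separate family of membrane proteins. Liver is rich in these enzymes, and several of their genes are known to respond to the stress sensor NRF2 and to the drug receptors CAR and PXR. In mouse liver Gstp1 is known for a higher level in males.

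The sequences before the start of 6 genes are shown because a probe set of each of these genes passed a test in the comparisons. Gstm1, Gstm2 and Gstm3 lie close together on chromosome 3. Each line holds the 250 bases before the RefSeq start (GRCm38.p6), 5′ to 3′ on the gene's strand. Gstm1 and Mgst1 have 2 RefSeq starts each, and the upstream one is shown. Capitals mark matches on either strand to TGANNNNGC, a loose form of the core of the antioxidant response element bound by NRF2. It leaves the base after TGA free, so a match need not be such an element.
Gstm1, chr3:108017974-108018223, minus strand: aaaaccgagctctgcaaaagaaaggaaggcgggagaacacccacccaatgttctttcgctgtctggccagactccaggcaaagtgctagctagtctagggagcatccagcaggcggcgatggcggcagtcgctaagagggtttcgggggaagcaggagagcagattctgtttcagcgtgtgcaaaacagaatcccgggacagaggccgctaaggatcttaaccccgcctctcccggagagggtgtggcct
Gstm2, chr3:107986421-107986670, minus strand: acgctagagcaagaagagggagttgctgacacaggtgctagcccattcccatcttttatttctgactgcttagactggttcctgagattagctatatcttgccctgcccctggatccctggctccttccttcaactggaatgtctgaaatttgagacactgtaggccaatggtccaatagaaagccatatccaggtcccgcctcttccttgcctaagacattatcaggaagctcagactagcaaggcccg
Gstm3, chr3:107969175-107969424, minus strand: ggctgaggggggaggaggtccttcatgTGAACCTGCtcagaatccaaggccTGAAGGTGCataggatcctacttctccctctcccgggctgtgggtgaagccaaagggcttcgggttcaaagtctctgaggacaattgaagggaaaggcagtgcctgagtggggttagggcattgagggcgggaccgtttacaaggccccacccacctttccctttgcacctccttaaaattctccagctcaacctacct
Gstp1, chr19:4037913-4038162, minus strand: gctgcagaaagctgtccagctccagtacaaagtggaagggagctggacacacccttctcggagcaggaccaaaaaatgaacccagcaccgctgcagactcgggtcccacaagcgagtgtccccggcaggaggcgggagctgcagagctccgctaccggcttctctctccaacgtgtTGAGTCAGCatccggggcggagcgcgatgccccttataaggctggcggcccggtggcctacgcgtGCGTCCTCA
Mgst1, chr6:138140277-138140526, plus strand: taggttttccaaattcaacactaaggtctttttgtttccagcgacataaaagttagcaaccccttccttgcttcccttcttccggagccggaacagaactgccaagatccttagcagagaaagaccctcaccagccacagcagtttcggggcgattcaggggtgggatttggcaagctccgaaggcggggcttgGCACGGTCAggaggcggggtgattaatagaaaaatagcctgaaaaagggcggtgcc
Mgst3, chr1:167393842-167394091, minus strand: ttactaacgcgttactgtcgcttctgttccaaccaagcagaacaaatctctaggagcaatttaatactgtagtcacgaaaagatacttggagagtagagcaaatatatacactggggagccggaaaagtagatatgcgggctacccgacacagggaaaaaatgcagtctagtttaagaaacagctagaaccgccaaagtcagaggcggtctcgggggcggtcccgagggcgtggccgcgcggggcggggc
A match stood in 5 of the 10 windows available for the genes (8 of the 10 genes had a window), against 35.2% of all 32851 windows of this length. Gstm3, Gstp1 and Gsta3 held 2 matches each, and Gstt1 and the upstream window of Mgst1 held 1 each. The windows of Gstm1, Gstm2 and Mgst3 and the downstream window of Mgst1 held none. The upstream match of Gstp1 contains TGAGTCA, the binding sequence of AP-1, so the letters of both motifs overlap there. The core of the glucocorticoid response element, ACANNNTGT, was in 0 of the 10 windows and in 5.84% of all windows. These matches describe letters in the windows and no binding was measured.

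Of the 14 probe sets, 13 passed the filter on dim signals and were tested, and they stand for all 10 genes. The second Mgst3 probe set lay above the array median on 0 of the 27 arrays. Its intensity was at most 16.3 in Dex, 6.2 in Veh and 4.4 in Con, and it was not tested. The suffix _f_at marks probes shared within a gene family and _r_at marks probes chosen under relaxed rules. The values of the _f_at probe sets of Gstm1 and Gstm3 may therefore hold signal from other mu-class transcripts, and how much was not tested.

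Array medians ranged from 17.6 to 33.3, and Spearman correlations between arrays from 0.793 to 0.937. Of 8 hepatocyte markers 6 were measured, with a summed intensity of 44430 to 106482 in Dex, 39619 to 83739 in Veh and 39470 to 68363 in Con. Degraded RNA raises the signal at the 3' end of a transcript over that at its 5' end, and for beta-actin this ratio on the log2 scale was 0.886 ± 0.169 in Dex, 1.27 ± 0.318 in Veh and 0.947 ± 0.243 in Con (SD, n = 9 each). In a liver extract, fewer cells of a type and less RNA per cell cannot be told apart.

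The largest difference in the family was that of Gstm3 in Dex livers. Against Con livers, probe sets for 3 genes of the mu class rose, by 2.24-fold and 2.65-fold for the 2 Gstm3 probe sets, 2.08-fold for 1 of 2 Gstm2 probe sets and 1.56-fold for 1 of 2 Gstm1 probe sets. Against Veh livers the same Gstm3 and Gstm2 probe sets were 2.04-fold to 2.78-fold higher without passing the test. The values were uneven among the Dex mice, with Dex 1 and Dex 5 highest for Gstm3.

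Gstm3 encodes a soluble mu-class enzyme. Its _f_at probe set had a lowest, median and highest intensity of 1268, 2716 and 9783 in Dex, 1009, 1334 and 2420 in Veh, and 1003, 1215 and 1839 in Con. In Dex 1 it reached 9783 and in Dex 5 it reached 7483, while Dex 4 (1368), Dex 8 (1677) and Dex 9 (1268) lay within the Con range and Dex 7 (2142) lay within the Veh range but above every Con mouse. The fit gave 1.16 ± 0.28 for Dex vs Con (SE, 9 mice per group, limma adjusted p = 0.00766, 9 of 9 Dex mice above the Con median) and 1.03 ± 0.28 for Dex vs Veh (limma adjusted p = 0.0881, 8 of 9 above the Veh median).

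The other Gstm3 probe set (_r_at) showed a wider spread in Dex. Its lowest, median and highest intensity was 364, 1356 and 5009 in Dex, 339, 408 and 653 in Veh, and 316, 437 and 678 in Con. In 6 of 9 Dex mice it lay above every Veh mouse and every Con mouse, while Dex 4, Dex 8 and Dex 9 lay within the Con range. The difference was 1.41 ± 0.36 for Dex vs Con (limma adjusted p = 0.00958) and 1.48 ± 0.36 for Dex vs Veh (limma adjusted p = 0.0597). The within-group SD of its log2 intensity was 1.37 in Dex, 0.275 in Veh and 0.361 in Con. The fit takes 1 variance per probe set for all groups, so its SE and p do not reflect unequal spread.

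The probe sets of Gstm3 ranked the Dex mice almost alike. Both are annotated to the same sequence record and were read on the same arrays, so their agreement describes the measurement. Their values spread less in Veh and Con than in Dex. Among the 9 Dex mice their Pearson correlation was 0.987 (exact permutation p = 8.27e-06, adjusted over 27 relations 2.23e-04) and Spearman's rho was 0.983 (exact p = 4.96e-05, adjusted 0.00134). It was 0.977 without the 2 mice farthest from the median. In Veh the same correlation was 0.618 (rho = 0.30) and in Con 0.622 (rho = 0.533), and neither passed an exact permutation test after adjustment (adjusted p = 0.213 for both r, 0.655 for rho in Veh and 0.306 for rho in Con). Without the 2 farthest mice r was 0.363 in Veh and 0.498 in Con. In Con the _f_at probe sets of Gstm3 and Gstm1 were closely related (r = 0.929, exact permutation adjusted p = 0.00573, rho = 0.833). Without the 2 farthest mice their r was 0.943. It was 0.654 in Dex and 0.584 in Veh (adjusted p = 0.213 for both). The part of shared probes in this relation was not tested. No other relation between mu-class probe sets passed after adjustment.

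Gstm2, a second mu-class enzyme, differed in shape among mice. For its _at probe set the lowest, median and highest intensity was 96.8, 407 and 762 in Dex, 100.1, 149.8 and 568 in Veh, and 120.1, 176 and 399 in Con. In Dex, 8 of 9 mice lay between 336 and 762, and Dex 2 at 96.8 lay below every Veh and every Con mouse. In Veh the mouse with 568 was Veh 2, and the other 8 lay at or under 206. The difference was 1.06 ± 0.32 for Dex vs Con (SE, limma adjusted p = 0.0234) and 1.22 ± 0.32 for Dex vs Veh (limma adjusted p = 0.0738), with 8 of 9 Dex mice above the other group's median in each.

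The dimmer Gstm2 probe set (_r_at) gave 0.86 ± 0.29 for Dex vs Veh and 0.19 ± 0.29 for Dex vs Con (limma adjusted p = 0.156 and 0.695). Its lowest, median and highest intensity was 58, 103 and 213 in Dex, 17.8, 64.6 and 96.3 in Veh, and 52.9, 95.5 and 152 in Con. Its median was lowest in Veh, and its Dex and Con values overlapped widely.

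Gstm1 encodes a major mu-class enzyme of liver. Its bright _f_at probe set had a lowest, median and highest intensity of 7898, 11913 and 24506 in Dex, 6615, 9274 and 11658 in Veh, and 6194, 7512 and 11577 in Con. In 5 of 9 Dex mice (Dex 1 to Dex 5) it lay above every Veh and every Con mouse. The difference was 0.64 ± 0.18 for Dex vs Con (limma adjusted p = 0.0150, 9 of 9 Dex mice above the Con median) and 0.41 ± 0.18 for Dex vs Veh (limma adjusted p = 0.260). The dimmer _r_at probe set gave 0.08 ± 0.14 for Dex vs Con (limma adjusted p = 0.729), with intensities of 78 to 142 in Dex, 67.5 to 108 in Veh and 76.2 to 135 in Con.

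**Figure D1:**
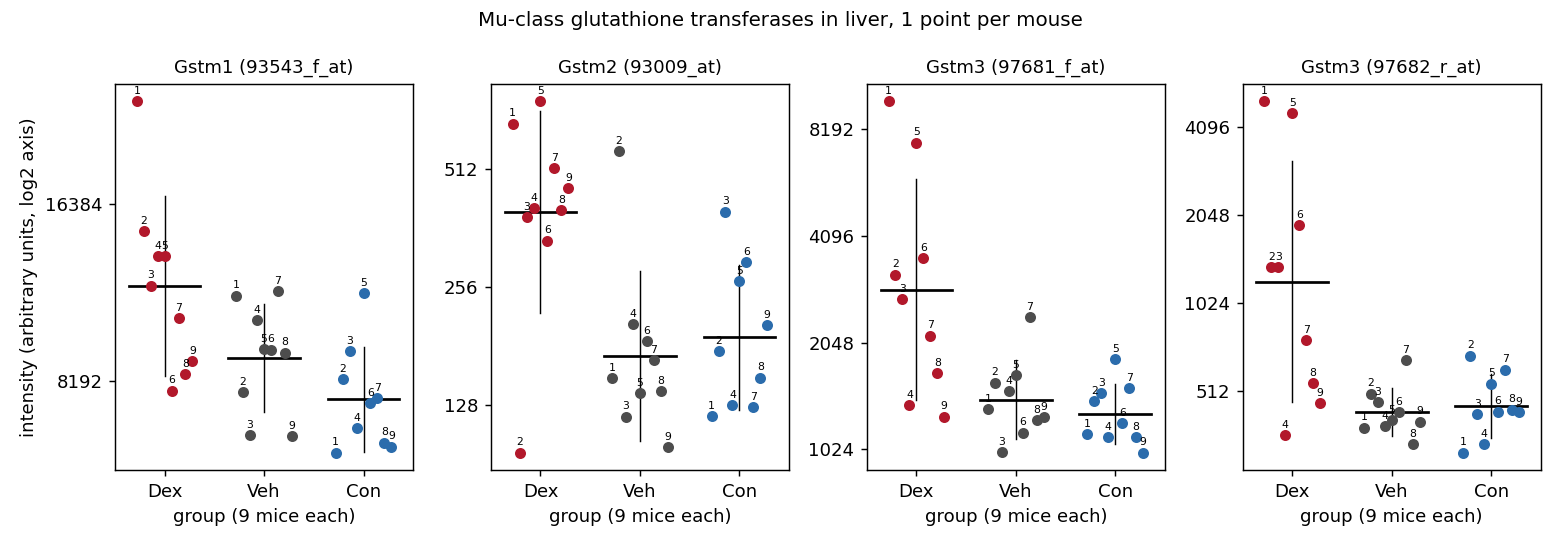
Intensity of 4 of the 6 probe sets of the mu-class genes Gstm1, Gstm2 and Gstm3 (log2 axis) in each of 9 Dex, 9 Veh and 9 Con mice, with the mouse number beside each point. Horizontal lines are means and vertical lines ± 1 SD of the log2 intensity, and Dex 1 and Dex 5 are the highest mice for both Gstm3 probe sets, at 9783 and 7483 for the _f_at probe set.

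The Gstm1 difference depended on the scaling of the arrays. With quantile normalization it was 0.29 (limma adjusted p = 0.0977), while the Gstm2 _at probe set (1.21, limma adjusted p = 0.0164) and both Gstm3 probe sets (0.94 and 1.32, limma adjusted p = 0.0271 and 0.0137) still passed in Dex vs Con. With the array median as a covariate the Gstm1 difference was 0.48 (limma adjusted p = 0.0608) and that of Gstm2 0.93 (limma adjusted p = 0.0863). In Dex vs Con, without these changes in scaling, 3 of 6 measured hepatocyte markers rose, against 3.26% of all tested probe sets. They were Tat, a tyrosine aminotransferase (1.18 ± 0.28, limma adjusted p = 0.00705), Apoa1 of high-density lipoprotein (0.67 ± 0.20, limma adjusted p = 0.0234) and Alb, which encodes albumin (0.61 ± 0.19, limma adjusted p = 0.0276). Ahsg (0.27), Ttr (0.14) and Fgb (-0.39) did not pass. The part of these markers in the Gstm1 difference was not tested.

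Leaving out Dex 1, Dex 2 and Dex 3, an alternative chosen with earlier results of these data known, changed the mu-class calls. Whether these 3 mice stand apart was not tested. The Gstm2 _at probe set gave 1.28 (limma adjusted p = 0.0131). Gstm3 gave 0.86 and 1.01 (limma adjusted p = 0.0516 and 0.0727) and the Gstm1 _f_at probe set gave 0.41 (limma adjusted p = 0.117) in Dex vs Con. Without Dex 1 alone the Gstm2 difference was 0.97 (limma adjusted p = 0.0503). The calls of both Gstm3 probe sets and of the Gstm1 _f_at probe set held whichever 1 of the 27 mice was left out.

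For Dex vs Veh, 0 of the 13 probe sets passed the limma test after adjustment, where 0.265% of all 6784 tested probe sets passed. The share of all that rose was 0.0442%, and the share that fell was 0.221%. At an unadjusted p under 0.05 the count was 7, against 15.2% of all tested probe sets, with 5 higher against 6.82% and 2 lower against 8.34%. The 5 higher ones were all mu-class, and the 2 lower ones belonged to Gsta4 and Gstt2. The median difference of the 13 was 0.15, and that of all tested probe sets was -0.03. Calls appeared in single sets that leave out 1 mouse. The Gstm2 _at probe set passed without Dex 2, Dex 6 or Veh 2 (adjusted p of 0.0240 to 0.0479), the Gstm3 _f_at probe set without Dex 9 (0.0468), and the Gstm3 _r_at probe set without Dex 4, Dex 6, Dex 8 or Dex 9 (0.0267 to 0.0453).

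Gstp1 and Mgst3 were the members that differed between Veh and Con livers, and they went opposite ways. Gstp1, the pi-class enzyme, was 2.11-fold lower in Veh than in Con, and Mgst3, a membrane enzyme with peroxidase activity, rose 2.24-fold. Here 2 of the 13 probe sets passed the limma test, against 3.86% of all 6784 tested probe sets. By direction, 1 rose against 1.19% of all, and 1 fell against 2.67%. At an unadjusted p under 0.05 the count was 5, against 23.6% of all, with 2 higher against 5.44% and 3 lower against 18.1%. With quantile normalization 52.9% of all passing probe sets were higher, against 30.9% without it, and the median over all tested probe sets was -0.02, against -0.19 without it.

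Gstp1 had a lowest, median and highest intensity of 2881, 5874 and 18092 in Veh and of 9707, 13907 and 18638 in Con. In 7 of 9 Veh mice it lay below every Con mouse, and Veh 1 (18092) and Veh 3 (10686) lay inside the Con range. The difference was -1.08 ± 0.30 (SE, limma adjusted p = 0.0411, 8 of 9 Veh mice below the Con median), or -0.88 relative to the median probe set. In Dex the lowest, median and highest intensity was 3079, 11195 and 17887, with the median between those of the other groups. Dex vs Con gave -0.49 ± 0.30 and Dex vs Veh gave 0.59 ± 0.30 (limma adjusted p = 0.267 and 0.351), so neither neighbour in that order differed from Dex beyond the test's threshold.

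The Gstp1 call was close to the threshold. It ended when Veh 2, Veh 4, Veh 5, Veh 6, Veh 7 or any 1 of the 9 Con mice was left out (limma adjusted p of 0.05003 to 0.0911, differences of -1.13 to -0.94). Adjusted for the beta-actin ratio the difference was -1.16 (limma adjusted p = 0.116), and with the array median as a covariate it was -1.25 (limma adjusted p = 0.0841).

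Mgst3 had a lowest, median and highest intensity of 77.6, 211 and 471 in Veh and of 57.1, 107 and 135 in Con. In 8 of 9 Veh mice it lay above every Con mouse, and Veh 3 at 77.6 lay inside the Con range. The difference was 1.16 ± 0.33 (SE, limma adjusted p = 0.0421, 8 of 9 Veh mice above the Con median), or 1.36 relative to the median probe set. In Dex livers the lowest, median and highest intensity was 68.9, 174 and 727, and 7 of 9 Dex mice lay above every Con mouse. Dex vs Con gave 0.92 ± 0.33, just over the threshold (limma adjusted p = 0.0519), and Dex vs Veh gave -0.24 ± 0.33 (limma adjusted p = 0.751).

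The Veh vs Con call of Mgst3 ended without Veh 2, Veh 4, Veh 5 or Veh 7, and without any 1 of the Con mice except Con 5 (limma adjusted p of 0.0548 to 0.0957). In Dex vs Con Mgst3 passed in 3 of 13 alternatives, among them quantile normalization (1.11, limma adjusted p = 0.0354). It also passed without Dex 3, Dex 5, Veh 3, Veh 4 or Veh 5 (0.0190 to 0.0486). Adjusted for the beta-actin ratio it was 1.23 in Veh vs Con (limma adjusted p = 0.123), and with the array median as a covariate 0.83 (limma adjusted p = 0.321).

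**Figure D2:**
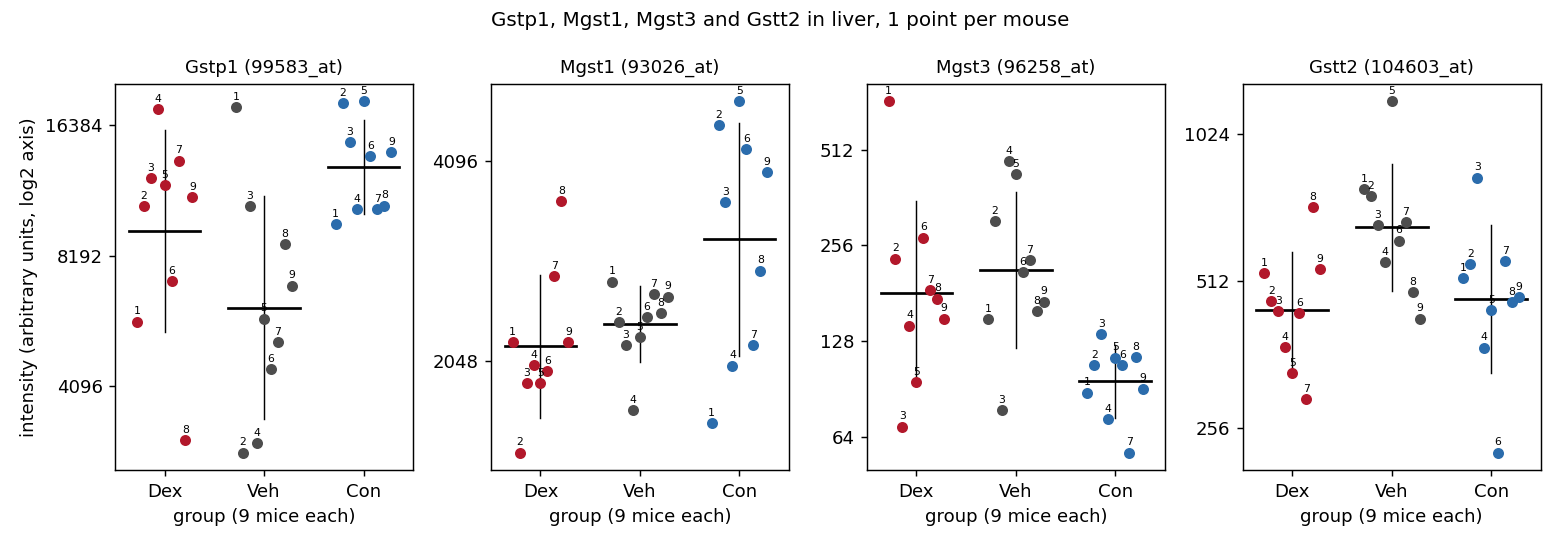
Intensity of Gstp1, Mgst1, Mgst3 and Gstt2 (log2 axis) in each of 9 Dex, 9 Veh and 9 Con mice, with the mouse number beside each point. Horizontal lines are means and vertical lines ± 1 SD of the log2 intensity, and 7 of 9 Veh mice lie below every Con mouse for Gstp1 and 8 of 9 lie above every Con mouse for Mgst3.

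Among the Veh mice, Gstp1 and Mgst3 varied with Cyp7b1, a steroid and oxysterol hydroxylase known for a higher level in male mouse liver. This gene was paired with them after its values were seen, so the correlations with it are a description and no test is given. Among the 9 Veh mice Gstp1 was high where Cyp7b1 was high, with a Pearson correlation of 0.849 and a Spearman's rho of 0.917. Leaving out the 2 mice farthest from the median gave 0.789. Veh 2 and Veh 4 had the lowest Gstp1 in Veh, with log2 intensities of Cyp7b1 of 5.43 and 5.61, and Veh 1 had the highest Gstp1, with 9.74. Cyp7b1 was spread unevenly in Veh, with 4 mice from 5.43 to 6.24, Veh 6 at 7.83 and 4 mice from 9.04 to 9.74, and within either end there were too few mice to test the relation.

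Mgst3 ran the other way. Among the Veh mice its correlation with Cyp7b1 was -0.869, with a rho of -0.917 and -0.901 without the 2 farthest mice. Among the 9 Dex mice it was -0.823, with a rho of -0.833 and -0.82 without the 2 farthest mice. Dex 1, which had the highest Mgst3 of all 27 mice, had the lowest Cyp7b1 in Dex at 6.09.

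Among Dex mice Gstp1 and Cyp7b1 had an r of 0.495 and a rho of 0.70, and r was 0.577 without the 2 farthest mice. In Con, where Cyp7b1 spanned only 9.57 to 10.97, r was 0.31 and rho 0.217 for Gstp1, and r was 0.193 and rho 0.0833 for Mgst3. Without the 2 farthest Con mice r was 0.781 for Gstp1 and -0.0083 for Mgst3. Cyp7b1 itself fell in Veh livers against Con (-2.71 ± 0.58, limma adjusted p = 0.00925) and in Dex livers against Con (-1.93 ± 0.58, limma adjusted p = 0.0223). Gstp1 and Mgst3 were themselves negatively related in Veh. Their r was -0.729 (exact permutation adjusted p = 0.115), and -0.828 without the 2 farthest mice. Their rho was -0.833 (exact permutation p = 0.00827, adjusted 0.0372). The adjustment counts the relations with Cyp7b1, and the small p of these lower the adjusted p of this pair. The adjusted p of rho is therefore not taken as a pass.

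**Figure D3:**
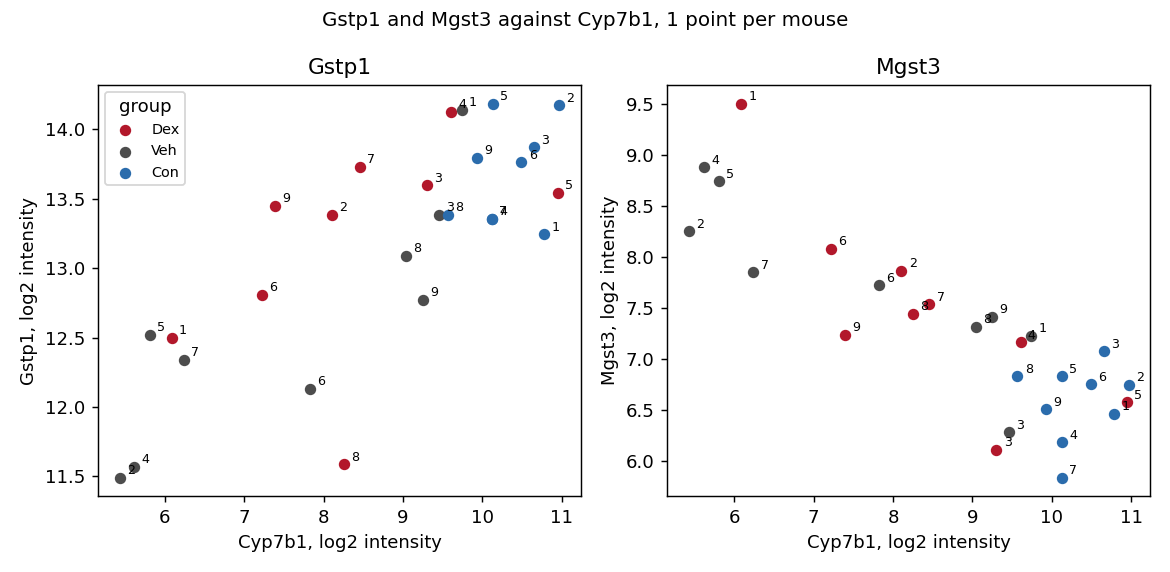
Log2 intensity of Gstp1 (left) and Mgst3 (right) against log2 intensity of Cyp7b1, 1 point per mouse, coloured by group (Dex, Veh, Con) with the mouse number beside each point. Among the 9 Veh mice the correlation was 0.849 for Gstp1 and -0.869 for Mgst3, and the Con mice sit at the high end of Cyp7b1.

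Genes that differ by sex in mouse liver were read in the same comparison. Of the 7 measured genes that are higher in males, 6 had lower values in Veh than in Con. Over all tested probe sets only 30.1% had higher values in Veh, so most were lower. Of the 7, 1 fell by the test, Cyp7b1, against 2.67% of all tested probe sets. The median of the 7 was -1.16, and that of all tested probe sets was -0.19. Of the 6 measured genes that are higher in females, 5 rose, among them Cyp2b9 and Cyp4a10, against 1.19% of all, with a median of 2.30. Cyp2b9, Cyp2c38 and Cyp2c39 of this list also stand in the list of CAR and PXR targets. The sources used here do not give the sex of the mice, and the part of these genes in the Gstp1 and Mgst3 values was not tested.

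Mgst1, a membrane enzyme of the endoplasmic reticulum and outer mitochondrial membrane, was lower in Dex than in Con. The lowest, median and highest intensity was 1494, 2021 and 3560 in Dex, 1732, 2388 and 2697 in Veh, and 1654, 3549 and 5028 in Con. The groups overlapped, with 5 of 9 Con mice inside the Dex range, and Con was the most spread of the groups (SD of the log2 intensity 0.356 in Dex, 0.190 in Veh and 0.579 in Con). The difference was -0.53 ± 0.19 for Dex vs Con (SE, limma adjusted p = 0.0466, 8 of 9 Dex mice below the Con median), or -0.33 relative to the median probe set, and -0.42 ± 0.19 for Veh vs Con (limma adjusted p = 0.164, 9 of 9 Veh mice below the Con median).

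The Mgst1 call in Dex vs Con ended in 18 of the 27 sets that leave out 1 mouse (limma adjusted p of 0.0507 to 0.0979), those without Dex 1 to Dex 6, Dex 9, Veh 2, Veh 3, Veh 5, Veh 6, Veh 8, Con 2, Con 3, Con 5, Con 6, Con 8 or Con 9. Of 13 other alternatives it passed in 5 and was lost in 8, with differences of -0.77 to -0.42 and limma adjusted p of 0.0114 to 0.209. The losses were with no filter (0.0793), the replicate block (0.0625), only the 2 groups (0.0913), the beta-actin ratio (0.0570), the array median (0.0750), no mean trend (0.0616), array weights (0.0874) and without Dex 1, Dex 2 and Dex 3 together (0.209).

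In Dex vs Con, 5 of the 13 probe sets passed, against 16.4% of all 6784 tested probe sets. Of these 4 rose, all from the mu-class genes Gstm1, Gstm2 and Gstm3, against 3.26% of all, and 1 fell, Mgst1, against 13.2%. At an unadjusted p under 0.05 the count was 7, against 31.5% of all, with 5 higher against 6.96% and 2 lower against 24.6%. The median of the 13 was 0.10, and that of all tested probe sets was -0.20. The count of calls was 3 without Dex 1. In none of the 13 probe sets did 2 groups lie fully apart, which was so for 0.0295% of all tested probe sets between Dex and Veh, 0.413% between Veh and Con, and 0.767% between Dex and Con. Dex vs Con and Dex vs Veh share the Dex mice, and Dex vs Con and Veh vs Con share the Con mice, so values in the 3 comparisons are not independent of each other.

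**Figure D4:**
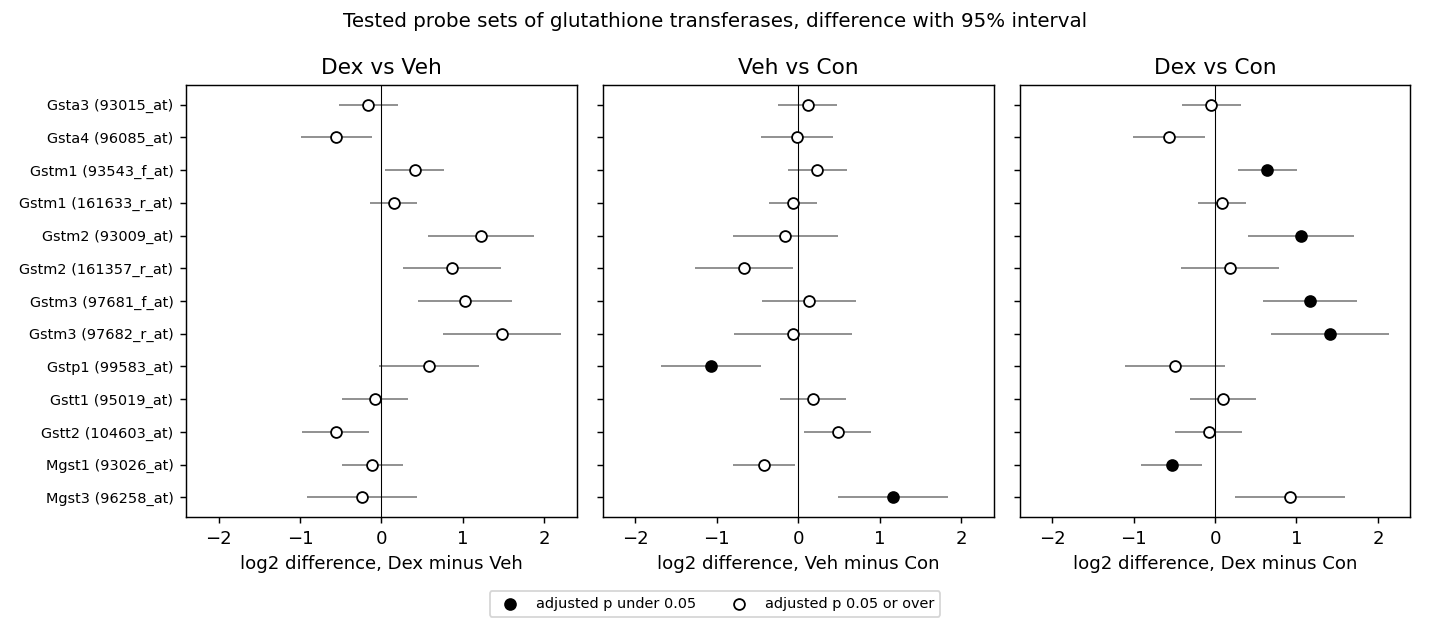
Log2 difference with its 95% interval for the 13 tested probe sets, with a panel each for Dex minus Veh, Veh minus Con and Dex minus Con. Filled points have a limma adjusted p under 0.05, which holds for 0, 2 and 5 of the 13, and both Gstm3 probe sets lie above 1 in each comparison with Dex.

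The theta-class genes Gstt1 and Gstt2, whose enzymes act on small halogenated compounds among others, did not pass any comparison. Gstt2 had a lowest, median and highest intensity of 294, 446 and 726 in Dex, 429, 666 and 1196 in Veh, and 228, 474 and 834 in Con. It was highest in Veh, with 8 of 9 Dex mice below the Veh median and 8 of 9 Veh mice above the Con median. The differences were -0.56 ± 0.20 for Dex vs Veh and 0.49 ± 0.20 for Veh vs Con (SE, limma adjusted p = 0.174 and 0.142).

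Gstt1 had a lowest, median and highest intensity of 395, 781 and 1167 in Dex, 408, 858 and 1163 in Veh, and 538, 613 and 887 in Con. Its groups overlapped throughout. The differences lay between -0.08 and 0.18, and the 95% intervals reached from -0.48 to 0.32 for Dex vs Veh, from -0.23 to 0.58 for Veh vs Con and from -0.31 to 0.50 for Dex vs Con.

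Of the alpha class, Gsta4 encodes an enzyme that clears hydroxynonenal, a product of lipid peroxidation. Its probe set had a lowest, median and highest intensity of 36, 83.9 and 127 in Dex, 77.3, 89.1 and 157 in Veh, and 78.2, 98.2 and 121 in Con. In Dex 1, Dex 2, Dex 4 and Dex 5 it lay between 36 and 48.6, below every Veh and every Con mouse, while the other 5 lay within the Veh range and, except Dex 8 at 127, within the Con range. The difference was -0.57 ± 0.22 for Dex vs Con and -0.55 ± 0.22 for Dex vs Veh (SE, limma adjusted p = 0.0665 and 0.206). The first passed without Dex 6, Dex 8 or Dex 9 (0.0184 to 0.0443).

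Gsta3, a second alpha-class enzyme, had a lowest, median and highest intensity of 485, 902 and 1481 in Dex, 835, 974 and 1234 in Veh, and 635, 935 and 1540 in Con. The groups overlapped, and the spread was narrowest in Veh (SD of the log2 intensity 0.467 in Dex, 0.184 in Veh and 0.445 in Con). The 95% intervals of the differences were -0.53 to 0.20 for Dex vs Veh, -0.25 to 0.48 for Veh vs Con and -0.41 to 0.32 for Dex vs Con.

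Other glutathione transferases outside the 10 genes showed no call. Of 7 measured members, 0 passed in each of the 3 comparisons with limma, and at an unadjusted p under 0.05 there was 1 in each. Gstz1, which isomerises maleylacetoacetate in tyrosine breakdown, came closest in Veh vs Con (0.35 ± 0.11, limma adjusted p = 0.0701). It also had the smallest p of the list in Dex vs Con (0.24, limma adjusted p = 0.152), and Gsta2 had it in Dex vs Veh (-0.78, limma adjusted p = 0.223). The list holds the further mu-class genes Gstm5 and Gstm6, which did not rise as probe sets of Gstm1, Gstm2 and Gstm3 did. The Gstm5 probe set is an _f_at one, so its values may hold signal from other mu-class transcripts. How much was not tested. In Dex vs Con Gstm5 and Gstm6 gave -0.05 ± 0.14 and -0.04 ± 0.22 (limma adjusted p = 0.829 and 0.929). In Dex vs Veh they gave 0.11 ± 0.14 and -0.09 ± 0.22 (limma adjusted p = 0.742 and 0.874).

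Transcripts of the enzyme that makes the first bond of glutathione were lower in Dex than in Con. The transcripts of both subunits fell, the catalytic Gclc (-1.23 ± 0.23, limma adjusted p = 9.36e-04, 9 of 9 Dex mice below the Con median) and the modifier Gclm (-0.74 ± 0.23, limma adjusted p = 0.0302, 5 of 9). They were 2 of the 10 measured genes of glutathione synthesis, recycling and peroxidases, and 0 rose by the test, against 13.2% of all tested probe sets that fell and 3.26% that rose. These counts are near the background. In Veh vs Con Gclc gave -0.59 and Gclm -0.58 (limma adjusted p = 0.117 and 0.133). In Dex vs Veh the smallest p belonged to the thiol reductase Glrx (0.65, limma adjusted p = 0.118).

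Of the measured transcripts of transporters that carry conjugates out of the cell, Abcc2 and Abcg2 fell and Abcc3 did not. Abcc2, which exports glutathione conjugates into bile, fell in Dex vs Con (-1.12 ± 0.21, limma adjusted p = 0.00108) and gave -0.70 ± 0.21 in Veh vs Con (limma adjusted p = 0.0558). Abcg2, an exporter with other substrates, fell in Dex livers against Con (-1.57 ± 0.27, limma adjusted p = 5.67e-04) and in Veh livers against Con (-0.96 ± 0.27, limma adjusted p = 0.0411). Abcc3, which exports conjugates toward the blood, gave 0.15 ± 0.23 in Dex livers against Con and 0.65 ± 0.23 in Veh livers against Con, where 9 of 9 Veh mice lay above the Con median (limma adjusted p = 0.681 and 0.0917). Among 8 measured genes of conjugate export and breakdown 2 fell and 0 rose in Dex vs Con, against 13.2% and 3.26% of all tested probe sets. In Veh vs Con 1 fell and 0 rose, against 2.67% and 1.19%. In Dex vs Veh the smallest p was that of the peptidase Anpep (-0.54, limma adjusted p = 0.254).

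Of 16 measured NRF2 targets outside the glutathione genes, 0 rose and 3 fell in Dex vs Con, with a median of -0.33. Over all tested probe sets 3.26% rose and 13.2% fell, so the counts are near the background. The 3 were Ces1g, a carboxylesterase (-1.57), the thioredoxin reductase Txnrd1 (-0.77) and the NRF2 gene itself, Nfe2l2 (-0.59), with limma adjusted p of 0.00332, 0.0118 and 0.0340. In Dex vs Veh and Veh vs Con 0 of the 16 passed with limma, against 0.265% and 3.86% of all tested probe sets. At an unadjusted p under 0.05 there were 3 in each, against 15.2% and 23.6%. The smallest p in Dex vs Veh was that of Ces1g (-1.17, limma adjusted p = 0.0955). In Veh vs Con it was that of Srxn1, which repairs peroxiredoxins (-0.67, limma adjusted p = 0.128). Nqo1, a classical NRF2 target, had no probe set that passed the filter.

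Of 13 measured genes in the list of CAR and PXR targets, 7 rose and 1 fell in Dex vs Con, against 3.26% and 13.2% of all tested probe sets, with a median of 0.52. The 13 include the genes of the receptors themselves, Nr1i3 (CAR) and Nr1i2 (PXR). Nr1i3 was 1 of the 7 (0.73 ± 0.21, limma adjusted p = 0.0171). The smallest p belonged to the sulfotransferase Sult1d1 (2.33 ± 0.34), Cyp2c38 (1.29 ± 0.21) and Cyp2b10 (3.98 ± 0.69), with limma adjusted p of 1.98e-04, 3.09e-04 and 5.67e-04. In Veh vs Con 3 rose (Cyp2b9, Cyp2c38 and Cyp2c39) and 1 fell, against 1.19% and 2.67% of all. The 1 that fell was the PXR gene Nr1i2 (-0.86 ± 0.23, limma adjusted p = 0.0353, 9 of 9 Veh mice below the Con median). In Dex vs Veh 1 rose against 0.0442%, Sult1d1 (1.72 ± 0.34, limma adjusted p = 0.0226). The control gene Actb gave 0.36 ± 0.46 for Dex minus Veh, -0.35 ± 0.46 for Veh minus Con and 0.01 ± 0.46 for Dex minus Con (limma adjusted p = 0.731, 0.655 and 0.988).

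Few markers of other cell types passed the test. Of 8 measured Kupffer cell and macrophage markers 7 had lower values in Dex than in Con (median -0.56). All 8 had lower values in Dex than in Veh (median -0.40). Of all tested probe sets 32.6% were higher in Dex than in Con (median -0.20) and 46.6% were higher in Dex than in Veh (median -0.03). In Dex vs Con 1 of the 8 markers fell by the test, Cd5l (-0.99), against 13.2% of all tested probe sets. Summed intensities of these markers were 523 to 1610 in Dex and 824 to 1783 in Con. Of 3 measured endothelial, 6 stellate cell and 3 red cell markers 1 each fell, Cdh5 (-0.63), Lum (-1.18) and Alas2 (-1.97), and the bile duct list had 1 measured member of 7 and summed intensities of 28.6 to 70.5 in Dex and 24.1 to 59.4 in Con. In Dex vs Veh and Veh vs Con no measured marker of any listed cell type passed with limma. Over all tested probe sets 0.265% and 3.86% passed there. The part of these cells in the glutathione transferase values was not tested.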

How the data were processed

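Liver RNA of 27 mice was hybridised to 27 Affymetrix arrays, and per the labels each array holds 1 mouse liver and targets were made by standard Affymetrix steps. The deposited values are linear intensities, 1 per probe set and array. Their mean, with 2% trimmed at each end, was 100.1 to 100.2 on every array, so the authors had scaled them. The sources used here do not name the software or its target. Before taking log2, intensities under 2.6, percentile 10 of those above 0, were raised to that floor. Probe sets above their array's median on at least 9 arrays, without the 66 control probe sets, were tested (6784 of 12488). Of all probe sets 10855 had 1 gene symbol, 396 several and 1237 none. A model of 3 group means was estimated over the 27 arrays (limma 3.58.1, R 4.3.3, 24 residual degrees of freedom, mean trend, two-sided, Benjamini-Hochberg over all tested probe sets, threshold 0.05), after a test on simulated data. Errors of differences are standard errors. The members, gene lists and alternatives were chosen with earlier results of these data known. All probe sets of the 10 genes are named, and of each other list at most 3 members per comparison by smallest p. The mu-class genes Gstm5 and Gstm6 and the receptor genes Nr1i2 and Nr1i3 are named in addition. So are the transporter gene Abcc3 in Dex vs Con, Nqo1, Actb and the hepatocyte markers Ahsg, Ttr and Fgb. For listed genes the brightest tested probe set was used. Correlations between members within groups were tested by exact two-sided permutation, with p adjusted over all 27 relations computed. Those with Cyp7b1 are given without a test but count among the 27. Depth does not apply to arrays; their number limits the precision.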

Additional observations from a re-analysis of the deposited data

Results flagged for a closer look

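In 4 of the 42 combinations of a probe set and a group of 9 mice, 1 mouse lay far from the rest, with a gap to its nearest neighbour over 0.493 of the group's log2 range. Chance gives about 1 such mouse in 20 groups. The Gstm2 _at probe set accounted for a pair of them. Dex 2 lay at 96.8, against 336 for the next Dex mouse (0.603 of the range), and Veh 2 lay at 568, against 206 for the next Veh mouse (0.586). Without Dex 2 the Dex vs Veh difference of Gstm2 was 1.47 (limma adjusted p = 0.0240), and without Veh 2 it was 1.43 (limma adjusted p = 0.0439). Mgst1 in Veh 4 lay at 1732, against 2166 for the next Veh mouse (0.505). The untested Mgst3 probe set lay at 4.4 in Con 7, with the other 8 Con mice at the floor (a gap of 1, the whole range). That gap follows from the floor, because any value above 8 equal ones spans the whole range. The chance rate above does not apply to it.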

How the results depend on the processing

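The number of arrays limits the precision. Of 507 differences recomputed under 13 alternatives, 462 kept their direction and side of the threshold, 23 lost a call and 6 gained one. The cause was not tested for any change below. Of the 13 probe sets of the family, the count passing in Dex vs Con was 2 with the array median as covariate and 1 without Dex 1, Dex 2 and Dex 3, and in Dex vs Veh it was 3 with the array median. In Veh vs Con it was 1 with the replicate block and 0 with no filter, with the actin ratio, with the array median and with no mean trend. With 1 mouse left out it was 3 to 6 in Dex vs Con, 0 to 2 in Dex vs Veh and 0 to 2 in Veh vs Con. Over all probe sets, Dex vs Veh (18) gave 7 with no filter, 3 with the replicate block, 1 with only the 2 groups, 1 with the beta-actin ratio, 111 with the array median, 5 with no mean trend, 4 with array weights, 1 without Dex 1 to Dex 3, and 4 to 124 with 1 mouse left out. Veh vs Con (262) gave 85 with quantile normalization, 116 with no filter, 656 with only the 2 groups, 33 with the beta-actin ratio, 75 with the Gapdh ratio, 21 with the array median, 1158 with array weights, 453 without Dex 1 to Dex 3, and 85 to 586 with 1 mouse left out. Dex vs Con (1115) gave 659 with quantile normalization, 470 with the array median, 405 without Dex 1 to Dex 3, and 785 to 1488 with 1 mouse left out.

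Same-numbered mice were at most weakly alike, with correlations of their deviations from -0.195 to 0.187. These were over 0.1 in 3 of 9 pairs of Dex and Veh mice, 0 of Veh and Con mice, and 1 of Dex and Con mice. Whether the numbers mark shared handling was not tested. The block ended the Veh vs Con call of Gstp1 (adjusted p = 0.0546) and the Dex vs Con call of Mgst1 (0.0625), and at most 3 of 9 mice correlated best with their own number.

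The differences that changed sign were small and did not pass in any setting. In Veh vs Con they were Gsta3 (-0.059 with quantile normalization), Gsta4 (0.18 with quantile normalization, 0.013 with the Gapdh ratio, 0.20 with the array median, 0.0096 with array weights, -0.10 to 0.029 with 1 mouse left out), the Gstm1 _r_at probe set (0.15 with quantile normalization, and 0.031 when the beta-actin ratio was included), the Gstm3 _f_at probe set (-0.064 with quantile normalization, -0.16 with the array median), the Gstm3 _r_at probe set (0.077 with the beta-actin ratio, -0.14 to 0.0024 with 1 mouse left out) and Gstt1 (-0.0094 with the array median). In Dex vs Con they were Gstt1 (-0.0022 with the Gapdh ratio, -0.038 with the array median and -0.038 without Dex 1 to Dex 3), Gsta3 (-0.14 to 0.065 with 1 mouse left out) and Gstt2 (-0.21 to 0.024). In Dex vs Veh they were Mgst1 (0.078 with the beta-actin ratio, 0.0053 without Dex 1 to Dex 3) and Gstt1 (-0.19 to 0.024 with 1 mouse left out).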

Other observations

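The genes whose pattern over the 27 arrays was most like that of Gstp1, Gstm1 and Gstm3, after group means were taken out, differed between the members. This is a description over arrays that share scaling and RNA quality, among 5190 genes. For Gstp1 they were Phyh, a peroxisomal phytanoyl-CoA hydroxylase (Pearson correlation 0.829), Mug-ps1 (0.796) and the cytochrome Cyp2d10 (0.759). For Gstm1 (_f_at) they were the translation factor Eef1a1 (0.812), Apoa1 (0.804) and the antithrombin gene Serpinc1 (0.796). For Gstm3 (_f_at) they were the chemokine Ccl9 (0.686), Jpt1 (0.645) and Mrap (0.629).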
